A study of Mus musculus with 2 samples.

Results

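Cholesterol synthesis and sterol handling were followed through 28 genes among the 32286 features counted in single cells of mouse bone. The genes were chosen by symbol, with earlier results of these data already known. They comprise 18 enzymes, 7 of the mevalonate steps and 11 of the squalene and sterol steps, together with 5 regulators of the SREBP transcription factors and 5 genes of cholesterol efflux, transport and LXR signalling. Both libraries came from Adipoq-CreERT2;Ai9 male mice, in which the promoter of the adiponectin gene drives a tamoxifen-activated Cre and recombination switches on the red fluorescent protein tdTomato. All mice received tamoxifen by gavage on 3 consecutive days at 8 weeks of age. Bone cells were taken 24 h later for the pulse library and 4 weeks later for the chase library, so chase mice were also older. The brightly tdTomato+ fraction, 0.01% of pulse cells and 0.29% of chase cells, was sorted after enzymatic digestion of the endosteal bone in femurs and tibias. The labels give 4 mice in all, without saying how many stand behind each of the 2 libraries.

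Cells make cholesterol from acetyl-CoA through mevalonate, farnesyl diphosphate, squalene and a chain of sterol intermediates. When membrane sterol is low, the escort protein SCAP carries SREBP to the Golgi, where the factor is cut free to switch on most of these enzymes; INSIG proteins hold the complex in the endoplasmic reticulum when sterol is plentiful. Oxysterols activate LXR, which raises the efflux transporters ABCA1 and ABCG1 and, in macrophages, apolipoprotein E. In marrow, CXCL12-abundant reticular (CAR) cells are stromal cells that support blood formation, and they include an adipocyte-primed and a bone-primed form.

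With 1 library per time point there is no replicate and no test between libraries. Every interval below is a 95% interval for counting error alone, and sums over cells cannot separate fewer expressing cells from less RNA per cell. After filters, 9212 pulse and 8335 chase cells remained, with median depths of 7772.5 and 7489 UMIs (unique molecular identifiers, each 1 captured transcript). The 2 libraries shared 52 cell barcodes. Cells were placed in classes by marker genes that include none of the 28. Of the kept cells, 47.9% in the pulse and 50.8% in the chase library were CAR-like, although the sort was for tdTomato; the others were mostly blood cells, osteoblast-like and endothelial-like cells. Adipogenic CAR-like cells numbered 3781 and 3750, led by Chrdl1, Esm1 and Adipoq. Osteogenic CAR-like cells numbered 634 and 483, led by Postn, Spp1 and Col6a3. Adipoq, Postn and Spp1 are markers of the gates themselves, so their lead follows from the gating. A further 135 and 106 cells scored best as adipogenic and 104 and 36 as osteogenic CAR-like but lay within the margin of the next class and were left out. The dendritic cell-like class was led by Siglech, itself a gate marker, Cox6a2 and Ccr9, genes of plasmacytoid dendritic cells, and 79 and 101 cells fell in it. Levels are given in CPM, the UMIs of a gene over all UMIs of the class, scaled to a fixed class total. They are compared between classes and not between genes, and in a sum of genes the most abundant weigh most.

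RefSeq promoter sequences (GRCm38.p6) were matched for 23 of the 28 genes, and 6 are shown because their transcripts vary most between the groups described below or because they carry the motifs of the pathway. Each run holds the 250 bases before a transcription start, written along the gene's own strand: Idi1 chr13:8885356-8885605 (+), Hmgcs1 chr13:119690101-119690350 (+), Cyp51 chr5:4104698-4104947 (-), Msmo1 chr8:64733579-64733828 (-), Srebf2 chr15:82147019-82147268 (+) and Insig2 chr1:121332590-121332839 (-), the last at the first of its 3 listed starts. Capitals mark matches on either strand to TCACNCCA, a relaxed form of the sterol response element, and to CCAAT, the NF-Y motif; the 2 do not overlap in these runs.
Idi1: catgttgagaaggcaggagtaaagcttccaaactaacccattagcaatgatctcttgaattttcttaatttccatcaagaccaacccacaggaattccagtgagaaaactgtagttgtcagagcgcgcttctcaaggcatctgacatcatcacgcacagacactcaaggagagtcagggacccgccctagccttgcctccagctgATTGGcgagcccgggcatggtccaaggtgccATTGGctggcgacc
Hmgcs1: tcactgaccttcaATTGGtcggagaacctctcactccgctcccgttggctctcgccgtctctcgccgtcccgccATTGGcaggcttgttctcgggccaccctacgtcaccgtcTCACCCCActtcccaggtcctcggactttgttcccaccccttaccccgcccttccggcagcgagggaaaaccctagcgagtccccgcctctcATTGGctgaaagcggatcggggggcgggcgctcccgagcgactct
Cyp51: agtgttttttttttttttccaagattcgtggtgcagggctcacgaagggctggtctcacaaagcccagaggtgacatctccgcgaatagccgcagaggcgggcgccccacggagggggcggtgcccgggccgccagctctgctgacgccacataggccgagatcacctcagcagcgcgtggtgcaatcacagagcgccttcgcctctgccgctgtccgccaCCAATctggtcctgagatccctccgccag
Msmo1: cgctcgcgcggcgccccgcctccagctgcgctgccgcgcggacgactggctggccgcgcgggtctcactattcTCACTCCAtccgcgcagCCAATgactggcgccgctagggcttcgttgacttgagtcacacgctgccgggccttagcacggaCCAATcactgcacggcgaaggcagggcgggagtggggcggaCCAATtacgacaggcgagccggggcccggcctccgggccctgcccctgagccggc
Srebf2: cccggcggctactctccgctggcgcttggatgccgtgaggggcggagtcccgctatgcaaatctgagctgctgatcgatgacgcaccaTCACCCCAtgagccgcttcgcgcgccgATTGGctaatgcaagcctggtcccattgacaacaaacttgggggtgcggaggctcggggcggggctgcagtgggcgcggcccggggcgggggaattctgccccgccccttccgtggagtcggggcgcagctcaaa
Insig2: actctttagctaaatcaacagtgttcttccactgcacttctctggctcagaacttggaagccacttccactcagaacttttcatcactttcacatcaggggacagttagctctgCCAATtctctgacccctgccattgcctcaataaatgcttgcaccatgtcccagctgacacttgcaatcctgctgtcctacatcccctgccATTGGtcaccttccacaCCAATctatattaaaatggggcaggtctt

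CCAAT was present before at least 1 start in 14 of 15 enzyme genes with an entry, Acat2 being the exception, against 37.5% of all 27025 genes in the table searched the same way. Idi1 holds 2 copies, at 45 and 14 bases before the start, Msmo1 holds 3, and Mvk holds 5. Among the 3 efflux genes with an entry (Abca1, Apoe and Nr1h3) no CCAAT was found. TCACNCCA lay before Hmgcs1, Msmo1, Srebf2 and Apoe, 4 of 23 genes, against 4.20% of all genes. Insig2 and Idi1 have CCAAT but no TCACNCCA in these windows, and the windows at the other 2 starts of Insig2 hold neither. Genes with several listed starts had more windows to match, and a match is a description of the letters only.

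Summed over the 18 enzymes, transcripts of cholesterol synthesis were highest in the dendritic cell-like class, at 471 CPM in the pulse and 480.3 CPM in the chase library. Osteogenic CAR-like cells followed with 370.5 and 392.9 CPM and primary-granule progenitor-like cells, the precursors of neutrophils marked by Elane and Mpo, with 353.1 and 371.8 CPM. Adipogenic CAR-like cells had 272.7 and 292.4 CPM. Osteoblast-like cells, marked by Bglap and Col1a1, had the lowest sums, 121 and 133.4 CPM. The extremes on CPM were the same in both libraries. Most genes had lower CPM in osteoblast-like than in osteogenic CAR-like cells, 70.4% and 64.3% of those tested by at least 1.5-fold. Median-of-ratios scaling moved the osteoblast-like over osteogenic synthesis ratio from 0.33 and 0.34 to 0.62 and 0.60. Both CAR-like sums lay apart in each library, with no overlap of their counting intervals.

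**Figure D1:**
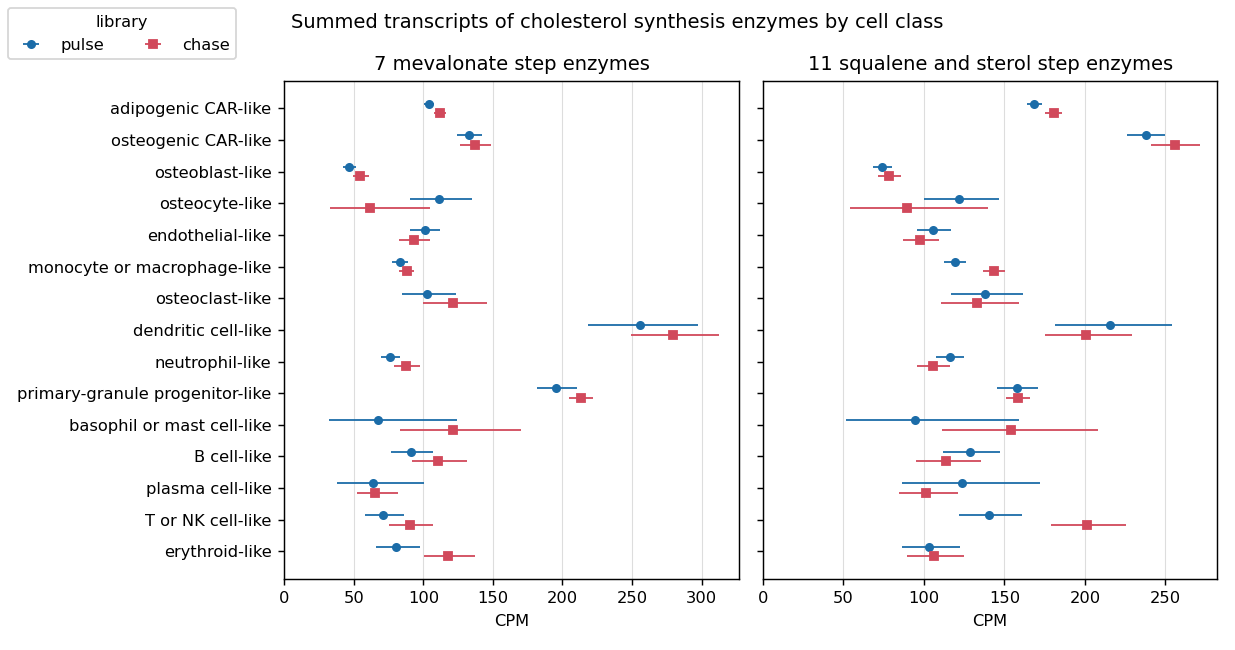
Summed CPM of the 7 mevalonate step enzymes (left) and the 11 squalene and sterol step enzymes (right) in 15 marker-gated classes; circles are the pulse and squares the chase library, and bars are 95% counting intervals. Dendritic cell-like and primary-granule progenitor-like cells stand highest on the left, and osteogenic CAR-like cells at 237.7 and 255.7 CPM stand highest on the right. Fdps weighs heavily in the progenitor-like sum on the left and Ebp in the osteogenic CAR-like sum on the right.

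The summed early and late steps were not spread alike over the classes. The 7 mevalonate step enzymes summed to 255.5 and 279.6 CPM in dendritic cell-like cells and 195.5 and 213.4 CPM in progenitor-like cells, against 132.8 and 137.2 CPM in osteogenic CAR-like cells. For the 11 squalene and sterol step enzymes the osteogenic CAR-like class was highest, with 237.7 and 255.7 CPM, above dendritic cell-like cells at 215.5 and 200.7 CPM; the intervals of these classes overlapped in the pulse library. Between dendritic cell-like and osteogenic CAR-like cells Fdps and Ebp differed in opposite directions. Fdps, which makes farnesyl diphosphate, the last precursor shared with protein prenylation, stood at 113.4 and 133 CPM in progenitor-like and 112.4 and 116.4 CPM in dendritic cell-like cells, against 11.7 and 14.3 CPM in adipogenic and 23.5 and 23.2 CPM in osteogenic CAR-like cells. Ebp, the sterol isomerase, reached 124.3 and 119.3 CPM in osteogenic CAR-like cells and 74.8 and 60.6 CPM in adipogenic ones, with 47.7 and 73.3 CPM in dendritic cell-like cells. These single genes weighed heavily in the sums. The lead of progenitor-like over osteogenic CAR-like cells in the mevalonate sum was smaller than their gap in Fdps in both libraries. In the pulse library the lead of osteogenic CAR-like over dendritic cell-like cells in the sterol sum was smaller than their gap in Ebp. Fdps reads may be shared with the same-strand transcripts Gm43738 and Gm22935 that it overlaps.

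When every cell was thinned to 2000 UMIs, 22.8% of dendritic cell-like cells in the pulse library had a Fdps UMI (18 of 79, exact binomial interval 14.1 to 33.6%) and 16% in the chase library (16 of 100). The share was 2.33 and 2.54% in adipogenic CAR-like cells, with 133 and 247 shallower cells left out. Without thinning these shares were 45.6 and 52.5% in dendritic cell-like and 9.31 and 8.35% in adipogenic CAR-like cells. Thinned shares in progenitor-like cells were 19.4 and 22.6%, below the dendritic cell-like share in the pulse and above it in the chase library. Both classes stood above adipogenic CAR-like cells in each library. Plasma cell-like cells had 23.8% (5 of 21) in the pulse and 7.81% (5 of 64) in the chase library.

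Other enzymes were ordered differently over the classes. Hsd17b7, a keto-reductase of sterol demethylation, was at 23.8 and 31.9 CPM in adipogenic and 18.5 and 34.2 CPM in osteogenic CAR-like cells, with 17.7 and 12.5 CPM in neutrophil-like cells and at most 7.69 CPM in the other pulse classes. Hmgcs1, the HMG-CoA synthase, was at 33.6 and 42 CPM in adipogenic and 40.1 and 41.6 CPM in osteogenic CAR-like cells and at 35.2 and 25.7 CPM in endothelial-like cells; dendritic cell-like cells had 27.7 and 42.2 CPM, the highest chase level, and the intervals of the leading classes overlapped in both libraries. Cyp51, the lanosterol demethylase, was highest in the pulse library in dendritic cell-like cells, at 46.2 CPM, with an interval that overlapped that of the next class, against 7.41 CPM in adipogenic CAR-like cells. Osteoblast-like cells had 12.1 and 11.1 CPM of Hmgcs1 and 4.84 and 3.7 CPM of Cyp51.

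Among the regulators, Srebf2, the SREBP that favours sterol genes, was highest in the dendritic cell-like class, which also had the highest enzyme sum. B cell-like cells came second for Srebf2 in the pulse library, at 64.2 CPM, although their enzyme sum there, 220 CPM, ranked 7 of 15. Dendritic cell-like cells had 113.9 and 100.8 CPM of Srebf2 and T or NK cell-like cells 57 and 65.8 CPM. Osteogenic CAR-like cells, second in the enzyme sum, had 32.6 and 48.1 CPM and osteoblast-like cells 8.14 and 12.4 CPM. Over the 15 classes, Pearson's r on log2-scaled CPM between Srebf2 and the enzyme sum was 0.63 in the pulse and 0.77 in the chase library. For Scap it was 0.73 and 0.61. For each enzyme, r was taken against the sum of the other enzymes. Among the 28 genes Srebf2 and Scap were the 2 with the highest pulse values, and Srebf2 and Idi1 (0.70) had the highest chase values. These points share a library and differ in depth and class size, so the coefficients are descriptions only. Srebf1, the SREBP that favours fatty acid genes, was highest in monocyte or macrophage-like cells in the pulse library at 46.1 CPM.

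Insig2 followed another order, the mesenchymal one. Its transcripts were highest in osteocyte-like cells, at 317.7 CPM in the pulse and 226.5 CPM in the chase library, from 53 and 13 cells; the chase interval overlapped that of adipogenic CAR-like cells. Adipogenic CAR-like cells had 208.2 and 221.1 CPM and osteogenic CAR-like cells 174.4 and 220.4 CPM. Osteoblast-like cells had 95 and 83.4 CPM. Endothelial-like cells were next with 44.7 and 53.1 CPM, and no blood cell class exceeded 40.3 CPM. Adipogenic CAR-like cells stood 6.67-fold above monocyte or macrophage-like cells in the pulse and 7.71-fold in the chase library. The coefficient of Insig2 with the enzyme sum over classes was 0.09 and -0.10.

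Thinned to 2000 UMIs per cell, 32.8% of adipogenic CAR-like cells in the pulse library (1197 of 3648; 31.3 to 34.4%) and 35.5% in the chase library (1242 of 3503; 33.9 to 37.1%) had an Insig2 UMI. Among osteocyte-like cells it was 26 of 53 (49.1%) in the pulse and 3 of 13 (23.1%; 5.04 to 53.8%) in the chase library, so the chase order of these classes was not settled. In neutrophil-like cells the share was 4.52 and 5%, and free RNA could give UMIs at about that level. Before thinning, the median adipogenic CAR-like cell held 8173 and 6605.5 UMIs and the median neutrophil-like cell 7437 and 8748.5 UMIs. Without thinning the shares were 73.9 and 68.7% against 16.4 and 14.6%. Insig2 lies on the minus strand of chromosome 1 at 121304353 to 121332589 (mm10) and overlaps Gm37174 on the other strand; the sources used here do not state whether counting used strand.

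Insig1, the paralog that SREBP itself induces, was also highest in osteocyte-like cells, at 59.4 and 94.4 CPM, from 53 and 13 cells. In the pulse library the interval overlapped that of dendritic cell-like cells at 38.5 CPM. Thinned pulse shares were 7.55% (4 of 53) in osteocyte-like, 7.51% (31 of 413) in osteoblast-like and 10.1% (8 of 79) in dendritic cell-like cells. The chase share was 15.4% (2 of 13; 1.92 to 45.4%) in osteocyte-like cells. It was 7.89% (25 of 317) in osteoblast-like and 6% (6 of 100) in dendritic cell-like cells. Osteoblast-like cells had 34 and 37.3 CPM, more than adipogenic CAR-like cells at 16.7 and 20.7 CPM, although their enzyme sum was lower. Against osteogenic CAR-like cells the osteoblast-like level of Insig1 was 1.48-fold (1.21 to 1.81) in the pulse and 1.39-fold (1.11 to 1.76) in the chase library.

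**Figure D2:**
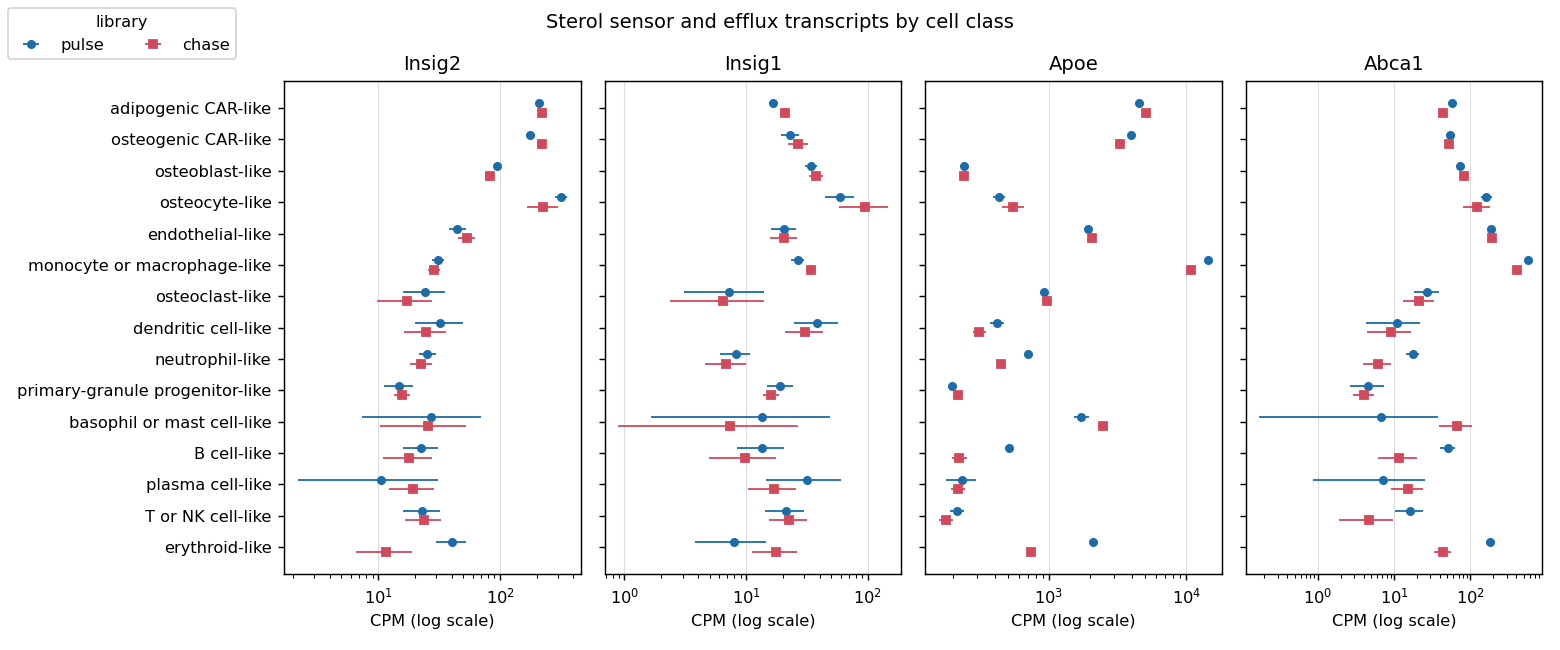
CPM on log axes of Insig2, Insig1, Apoe and Abca1 in 15 marker-gated classes, pulse as circles and chase as squares, with 95% counting intervals. Insig2 separates the 4 mesenchymal classes at the top, all at 83.4 CPM or more, from the rest at 53.1 CPM or less, while Apoe and Abca1 peak in monocyte or macrophage-like cells.

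Efflux and LXR genes peaked in monocyte or macrophage-like cells. Abca1, which loads cholesterol onto apolipoprotein A-I, stood there at 570.7 and 410.9 CPM, and Abcg1, which passes cholesterol to HDL, at 279.9 and 225.7 CPM. Nr1h3, the gene for LXR alpha, stood at 268.5 and 211.7 CPM, and Apoe at 14451 and 10873 CPM. Endothelial-like cells came second for Abcg1, with 139.5 and 90.7 CPM, and had Abca1 at 184.7 and 192.4 CPM. In pulse erythroid-like cells Abca1 was also at 183.2 CPM and Apoe at 2074 CPM; that class carried macrophage markers, and their part in the result was not tested. Adipogenic CAR-like cells had 57.4 and 43.7 CPM of Abca1, 31.4 and 28.7 CPM of Nr1h3 and 4498 and 5094 CPM of Apoe. Apoe was present at 213.6 and 177.6 CPM even in T or NK cell-like cells, so levels near that in other classes, such as 238.3 and 239.7 CPM in osteoblast-like cells, cannot be told apart from free RNA. Stard4, a cytosolic sterol carrier, was at 51.4 and 42.5 CPM in endothelial-like cells and at 4.03 and 8.04 CPM in adipogenic CAR-like cells.

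The 2 CAR-like forms were compared within each library. Osteogenic CAR-like cells carried more synthesis transcripts, 1.36 times the adipogenic sum in the pulse (1.30 to 1.42) and 1.34 times in the chase library (1.27 to 1.42). Of 16 enzymes with at least 100 UMIs, 8 were at least 1.5-fold higher and 1 was lower by that margin in the pulse library. Of all 11359 genes tested, 10.7% were higher and 13.8% lower by that margin. The median log2 ratio was 0.50 for the enzymes and -0.01 for all genes. In the chase library 5 of 16 were higher and 2 lower, against 10.3% and 14.1% of 10987 genes, and the medians were 0.39 and 0.02.

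Fdft1, the squalene synthase at the entry to the sterol branch, showed the widest gap. In the pulse library it stood at 10.6 CPM in osteogenic and 3.26 CPM in adipogenic cells, a ratio of 3.27 (2.37 to 4.47), and in the chase library at 12.3 and 5.06 CPM, a ratio of 2.43 (1.73 to 3.37). Dhcr7, which completes one route to cholesterol, was 2.27-fold (1.75 to 2.93) and 2.21-fold (1.63 to 2.96) higher. Fdps was 2.00-fold (1.65 to 2.42) and 1.63-fold (1.29 to 2.04) higher, and Ebp 1.66-fold (1.53 to 1.80) and 1.97-fold (1.78 to 2.18). These 4 passed 1.5-fold in both libraries, and their intervals lay above 1. Fdft1 overlaps Ctsb on the other strand.

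Idi1, the isopentenyl diphosphate isomerase, and Cyp51 passed it in the pulse library only. Idi1 was at 8.93 CPM against 3.14 CPM there, a ratio of 2.85 (2.02 to 3.97), but at 8.60 against 6.92 CPM in the chase library, 1.24 (0.85 to 1.78). Cyp51 gave 2.62 (2.09 to 3.27) and 1.37 (1.04 to 1.79). Squalene epoxidase, Sqle, gave 1.98 (1.39 to 2.78) and 1.45 (1.00 to 2.06), and Msmo1, the methylsterol oxidase, 1.89 (1.46 to 2.43) and 1.47 (1.10 to 1.96). From pulse to chase the osteogenic levels went from 8.93 to 8.60 CPM for Idi1, from 19.4 to 15.8 CPM for Cyp51 and from 7.67 to 9.30 CPM for Sqle. The adipogenic levels went from 3.14 to 6.92 CPM, from 7.41 to 11.6 CPM and from 3.87 to 6.42 CPM. The difference between the libraries' ratios was not tested.

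Other enzymes did not follow. Sc5d, the lathosterol desaturase, was lower in osteogenic CAR-like cells, at 18.3 against 29.7 CPM (0.62; 0.51 to 0.75) and at 21.2 against 33.8 CPM (0.63; 0.50 to 0.78). Lss, the lanosterol synthase, was at 0.56 in the chase library from 9 and 97 UMIs, with an interval that reached 1.10. Mvk, the mevalonate kinase, was 1.69-fold higher (1.30 to 2.18) in the chase and 1.16-fold (0.92 to 1.45) in the pulse library. Acat2, Hmgcs1, Pmvk, Nsdhl and Hsd17b7 stayed under 1.5-fold in both. Mvd and Tm7sf2 had under 100 UMIs.

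**Figure D3:**
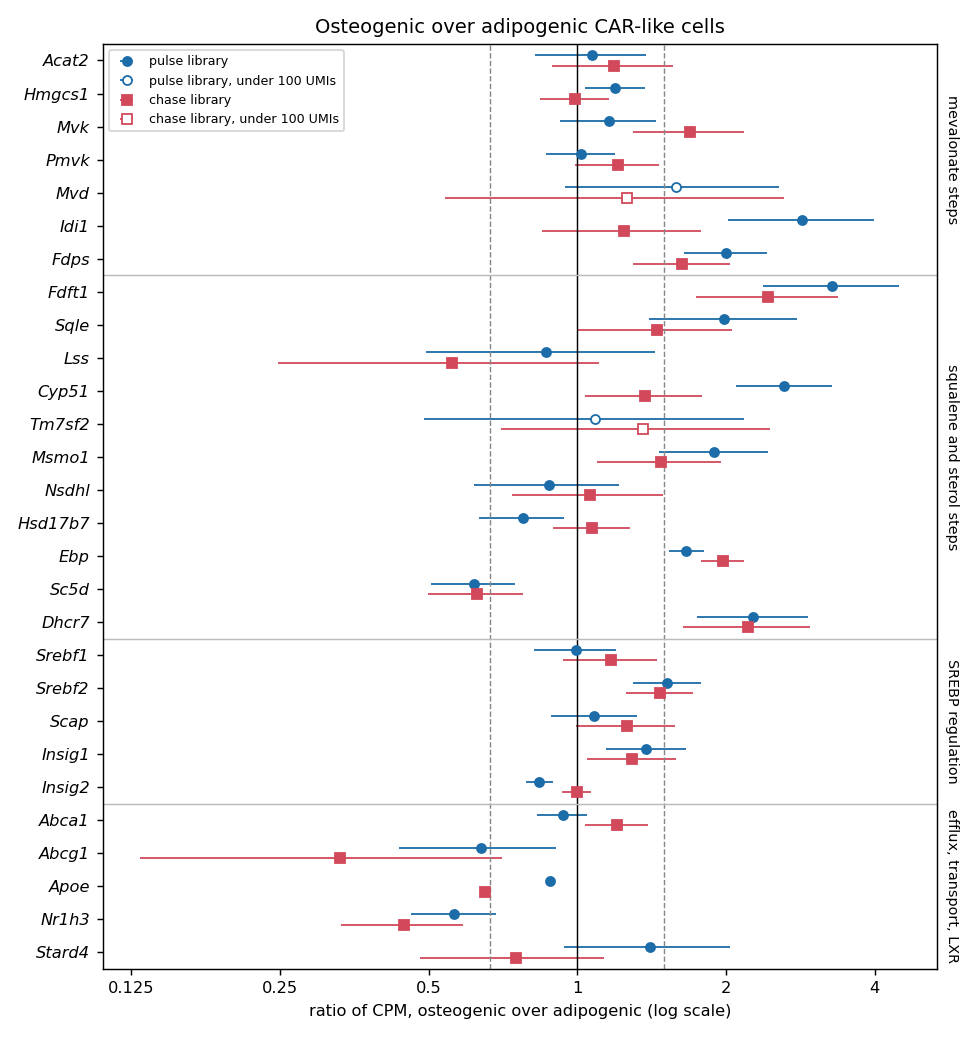
Ratio of CPM in osteogenic over adipogenic CAR-like cells for the 28 genes by role, on a log axis, circles for the pulse and squares for the chase library, with 95% counting intervals; open symbols have under 100 UMIs and dashed lines mark 1.5-fold in each direction. Fdft1, Dhcr7, Ebp and Fdps lie to the right of 1.5 in both libraries, and Sc5d, Nr1h3 and Abcg1 to the left.

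Among regulators and efflux genes the direction differed. Srebf2 was higher in osteogenic CAR-like cells, 1.52-fold (1.30 to 1.78) and 1.47-fold (1.26 to 1.71), while Srebf1 and Scap had ratios between 0.99 and 1.26. Insig2 was at 0.84 (0.79 to 0.89) in the pulse and 1.00 (0.93 to 1.07) in the chase library. Insig1 was higher, 1.38 (1.14 to 1.66) and 1.29 (1.05 to 1.58). Nr1h3 was lower, 0.56 (0.46 to 0.69) and 0.45 (0.33 to 0.59). Abcg1 was at 0.64 (0.44 to 0.91) and 0.33 (0.13 to 0.70), the second from 7 UMIs, and Apoe at 0.88 (0.87 to 0.89) and 0.65 (0.64 to 0.66). Abca1 did not follow, at 0.93 (0.83 to 1.05) in the pulse and 1.20 (1.04 to 1.39) in the chase library. Stard4 was at 1.40 (0.94 to 2.04) and 0.75 (0.48 to 1.13), and both intervals included 1. Of the 5 efflux genes 0 were higher by 1.5-fold and 2 lower in the pulse library, against 10.7% and 13.8% of all genes, and 0 higher and 3 lower in the chase library, against 10.3% and 14.1%.

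Genes of neighbouring steps, outside the 28, also differed between the 2 forms. Of 7 uptake genes tested in the pulse library, 2 passed 1.5-fold upward and 3 downward in osteogenic cells, and in the chase library 1 and 2 did. The shares of all genes were 10.7% and 13.8% in the pulse and 10.3% and 14.1% in the chase library. Vldlr, a receptor for apolipoprotein E-rich particles, was at 117.3 CPM in osteogenic against 8.67 CPM in adipogenic cells in the pulse library, 13.5-fold higher (11.8 to 15.6), and 26.1-fold higher (22.2 to 30.7) in the chase library. Mylip, an LXR-induced ligase that degrades lipoprotein receptors, was at 0.52 (0.45 to 0.60) and 0.62 (0.53 to 0.73), and the fatty acid and lipoprotein scavenger Cd36 at 0.04, from 3 UMIs, and 0.48. Soat1, the enzyme that esterifies cholesterol for storage, was at 101 against 234.4 CPM (0.43; 0.40 to 0.47) and at 73.7 against 207.1 CPM (0.36; 0.32 to 0.40), and was the only gene of the 6 in its esterification list with enough UMIs. Of 11 genes of intracellular sterol transport, 1 was higher and 3 lower in each library: Tmem97 was 2.48-fold and 1.59-fold higher, from 119 and 65 osteogenic UMIs, and Npc2, the lysosomal sterol carrier, at 0.62 in both.

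The remaining sterol lists held few tested genes, to be read against the shares of all genes, 10.7% higher and 13.8% lower in the pulse and 10.3% and 14.1% in the chase library. Of 7 genes in a mixed list of other sterol and SREBP genes, 1 was higher and 2 lower in each library. Lbr was at 1.55 and 1.56, Pgrmc1 at 0.50 and 0.52 and Erlin2 at 0.56 and 0.60. In the isoprenoid branch 2 of 6 genes were higher in the pulse library, Fntb at 1.72 and Pdss1 at 1.70, and 0 of 5 in the chase library. Among LXR partners and targets 0 were higher, and 2 of 6 and 1 of 5 lower, with Pltp, the phospholipid transfer protein, at 0.63 and 0.58.

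Several other measures moved with the contrast between CAR-like forms. Cell cycle transcripts were 5.29-fold and 4.02-fold higher in osteogenic CAR-like cells, immediate early transcripts were at 0.35 and 0.39, ribosomal protein transcripts at 1.63 and 1.54 and mitochondrial transcripts at 1.41 and 1.64. Neutrophil markers, all 10 of them detected, summed to 2272 against 4944 CPM and to 2241 against 3987 CPM, and monocyte markers were at 1.43 and 0.85. With cycling cells left out, the synthesis ratio was 1.33 in each library and 8 and 5 enzymes passed. With cells holding over 1% neutrophil marker UMIs left out, 8 and 6 enzymes passed and the ratio was 1.36 and 1.35.

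Cycling CAR-like cells, those with at least 3 of 12 cell cycle genes detected, were also set against the other CAR-like cells. There were 112 of them against 4303 cells in the pulse and 69 against 4164 in the chase library. Idi1 stood at 16.7 against 3.48 CPM, 4.79-fold higher (3.11 to 7.18), and at 19.3 against 6.79 CPM, 2.84-fold (1.62 to 4.67). Fdft1 was 3.95-fold (2.54 to 5.95) and 2.53-fold (1.32 to 4.44) higher. The summed synthesis ratio was 1.27 (1.18 to 1.38) in the pulse and 1.18 (1.05 to 1.32) in the chase library. Ratios above 1 were found for 11 of 16 enzymes in the pulse and for 8 of 16 in the chase library. In all, 6 of 16 enzymes were higher by 1.5-fold in each library, against 14% and 14.1% of all genes tested. As a mean over cells 3 passed in the chase library, where Fdps was at 1.12 and Sqle at 0.97; with doublets removed at the loading rate these were at 1.03 and 0.87. Sc5d was lower in the pulse library (0.57; 0.38 to 0.82), where 18.3% of genes were lower, and Acat2 and Nsdhl, both from under 10 UMIs with intervals that include 1, in the chase library, where 23.3% were lower. Stard4 was 3.29-fold higher (2.02 to 5.14) in the pulse and 1.49-fold (0.70 to 2.78) in the chase library. Insig2 was at 0.70 (0.61 to 0.79) and 0.71 (0.60 to 0.84) and Apoe at 0.70 and 0.49.

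Cycling cells differed in more than the cycle. Their median depth was 15656 against 8224 UMIs and 11276 against 6691 UMIs. Neutrophil markers summed to 28987 against 3318 CPM in the pulse and to 43751 against 2536 CPM in the chase library, and monocyte markers were 5.91-fold and 2.44-fold higher. Cells with over 1% neutrophil marker UMIs made up 13.4% of cycling cells in the pulse and 27.5% in the chase library. Without them, Idi1 was at 4.63 and 2.41 and Fdft1 at 4.59 and 2.82, and 8 and 7 enzymes passed. With doublets removed at the loading rate, Idi1 was at 2.94 and 1.92, Fdft1 at 4.98 and 1.61 and Abcg1 in the pulse library at 1.08, down from 2.01.

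Osteogenic CAR-like cells were also over-represented, with 52 of 112 cycling cells in the pulse and 17 of 69 in the chase library. Within the adipogenic form the summed synthesis ratio of cycling over other cells was 1.10 (0.97 to 1.24) and 1.06 (0.91 to 1.22). Within the osteogenic form it was 1.20 (1.07 to 1.34) and 1.23 (1.02 to 1.47). Cells with over 1% neutrophil marker UMIs were 14 of 60 and 18 of 52 adipogenic cycling cells. Among osteogenic cycling cells they were 1 of 52 and 1 of 17. Their part in the ratios within a form was not tested. Idi1 was higher in adipogenic cycling cells of both libraries, at 6.80 (3.78 to 11.53) and 3.24 (1.69 to 5.69), from 17 and 13 UMIs. Fdft1 was higher in osteogenic cycling cells, at 2.83 (1.61 to 4.83) and 3.07 (1.32 to 6.37), from 21 and 9 UMIs. In osteogenic cycling cells Idi1 was at 1.87 (0.92 to 3.54) and 1.82 (0.47 to 5.11). In adipogenic cycling cells Fdft1 was at 2.40 (0.94 to 5.14) and 1.30 (0.35 to 3.41). These intervals included 1, and whether the forms differ in these ratios was not tested.

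The chase library was then compared with the pulse library. In adipogenic CAR-like cells several enzymes were higher 4 weeks after labelling. Idi1 stood at 6.92 against 3.14 CPM, 2.21-fold (1.72 to 2.84). Sqle was 1.66-fold (1.31 to 2.11) higher, Tm7sf2, a sterol reductase that shares its strand with Vps51, 1.66-fold (1.12 to 2.48), Cyp51 1.56-fold (1.31 to 1.86) and Fdft1 1.55-fold (1.19 to 2.03). These were 5 of 18 enzymes, with 0 lower, against 6.28% of 11948 genes higher and 5.77% lower. As a mean over cells, which gives each cell equal weight, 2 enzymes passed, with Sqle at 1.45, Tm7sf2 at 1.42 and Fdft1 at 1.38. Ratios above 1 were found for 14 of 18 enzymes and for 5510 of all genes tested, and the medians were 0.24 and -0.03 on the log2 scale.

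The summed enzyme transcripts were 1.07-fold higher (1.04 to 1.11), and 4 enzymes went the other way. Ebp was at 60.6 against 74.8 CPM (0.81; 0.76 to 0.86), and Pmvk, the phosphomevalonate kinase, and Mvk were at 0.82 (0.74 to 0.91) and 0.81 (0.70 to 0.95), while the interval of Mvd, the mevalonate diphosphate decarboxylase, included 1 (0.73; 0.49 to 1.08). Srebf2 was 1.53-fold higher (1.38 to 1.69), Insig1 1.24-fold (1.10 to 1.40) and Insig2 1.06-fold (1.02 to 1.10). Stard4 was at 8.04 against 4.03 CPM, 2.00-fold (1.60 to 2.50). On the efflux side Abcg1 was at 4.91 against 8.60 CPM (0.57; 0.46 to 0.71), Abca1 at 43.7 against 57.4 CPM (0.76; 0.71 to 0.82), and Apoe at 1.13 (1.12 to 1.14).

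In osteogenic CAR-like cells only Hsd17b7, at 34.2 against 18.5 CPM (1.85; 1.44 to 2.38), passed 1.5-fold among 12 enzymes with enough UMIs, where 5.52% of 8891 genes were higher and 6.22% lower. Cyp51 was at 0.81 (0.60 to 1.10), Idi1 at 0.96 (0.62 to 1.48) from 37 and 57 UMIs, and Stard4 at 1.07 (0.62 to 1.83) from 26 and 36 UMIs. Abcg1 was at 0.30 (0.11 to 0.68) from 7 and 35 UMIs, and Tm7sf2 at 2.08 from 14 and 10 UMIs, with an interval of 0.86 to 5.23. Srebf2 was at 1.48 (1.21 to 1.80), close to its adipogenic ratio. The summed enzyme transcripts were at 1.06, also close to their adipogenic ratio, with an interval of 0.996 to 1.13. Insig2 was at 1.26 (1.16 to 1.38) and Apoe at 0.84 (0.82 to 0.85). In the same cells cell cycle transcripts were at 0.61, immediate early transcripts at 1.52, heat shock transcripts at 0.77, ribosomal protein transcripts at 0.77, mitochondrial transcripts at 1.18 and monocyte markers at 0.58 (108.1 against 187.9 CPM, all 10 detected); their part in these ratios was not tested. Whether the forms differ in their ratios was not tested either.

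**Figure D4:**
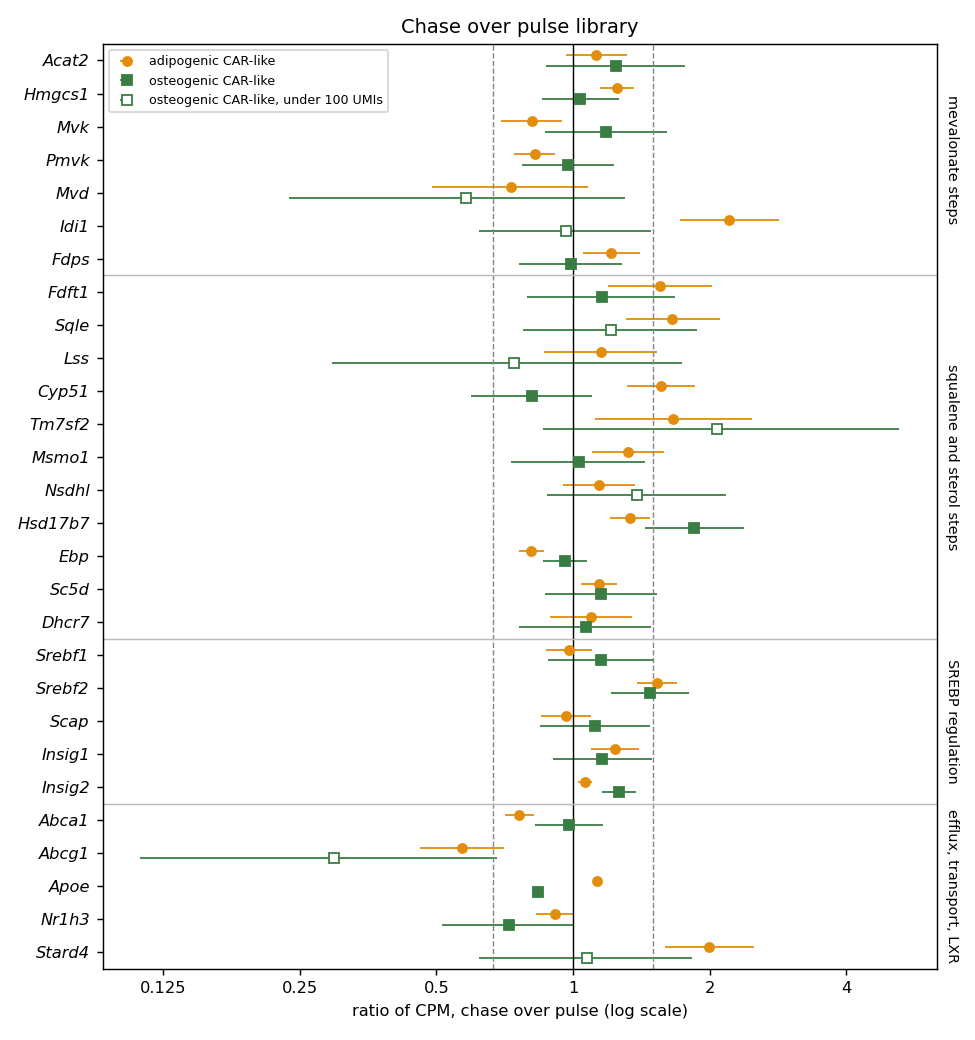
Ratio of CPM in the chase over the pulse library for the 28 genes by role, on a log axis, circles for adipogenic and squares for osteogenic CAR-like cells, with 95% counting intervals; open symbols have under 100 UMIs and dashed lines mark 1.5-fold. In adipogenic CAR-like cells Idi1 at 2.21 and Stard4 at 2.00 lie farthest right and Abcg1 at 0.57 farthest left.

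Over all CAR-like cells, 3 of 18 enzymes were higher by 1.5-fold (Idi1 1.75, Tm7sf2 1.72 and Sqle 1.52) and 0 lower, against 6.22% and 5.77% of 12308 genes. Of the other sterol lists in adipogenic CAR-like cells, 0 of 7 uptake genes were higher and 1, Cd36 at 0.61, was lower, and Apoc1, an LXR target, was lower at 0.44 among 6 tested. No gene passed 1.5-fold among 11 of intracellular transport, 7 of the mixed sterol and SREBP list, 6 of the isoprenoid branch and 2 of esterification. Immediate early transcripts were at 1.35, heat shock transcripts at 0.86, ribosomal protein transcripts at 0.82 and neutrophil markers at 0.81 in these cells, and the median depth was 6605.5 against 8173 UMIs; their part in the result was not tested. Without cells over 1% neutrophil marker UMIs, Idi1 was at 2.20 and 4 enzymes passed.

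Some of these differences were seen in other classes. Summed enzyme transcripts were at 1.38 (1.19 to 1.60) in T or NK cell-like and 1.14 (1.08 to 1.21) in monocyte or macrophage-like cells. In osteoblast-like cells they were at 1.10, with an interval above 1. In endothelial-like cells they were at 0.92 (0.83 to 1.03). The intervals of the sums also included 1 in neutrophil-like, B cell-like and primary-granule progenitor-like cells. Srebf2 was 1.52-fold (1.09 to 2.12) higher in osteoblast-like cells and 1.48-fold higher in the monocyte or macrophage-like class, which also had more Stard4, 1.79-fold (1.28 to 2.52), and less Srebf1 (0.62; 0.54 to 0.72). Abcg1 was lower in endothelial-like cells (0.65; 0.56 to 0.75), neutrophil-like cells (0.42; 0.27 to 0.63) and T or NK cell-like cells (0.50; 0.35 to 0.71). Fdps was 2.02-fold (1.52 to 2.69) higher in neutrophil-like cells, where Abca1 was at 0.35 (0.22 to 0.54). In neutrophil-like cells monocyte markers summed to 84.1 against 199.5 CPM (0.42) and cell cycle transcripts were at 1.31. In T or NK cell-like cells neutrophil markers were at 1.95 and cell cycle transcripts at 2.65. The part of these measures in the ratios was not tested. The background of genes past 1.5-fold, higher and lower, was 5.86% and 2.57% in osteoblast-like, 2.98% and 3.67% in monocyte or macrophage-like, 2.85% and 2.23% in endothelial-like, 3.33% and 9.35% in neutrophil-like and 9.02% and 5.91% in T or NK cell-like cells. Primary-granule progenitor-like cells had 0 of 12 enzymes and 0 of 19 of the 28 genes past 1.5-fold in either direction, where 3.02% of 8449 genes were higher and 1.98% lower. Their Fdps was at 1.17 (1.05 to 1.31) and their Srebf2 at 1.03 (0.82 to 1.29). In B cell-like cells only 3 of the 28 genes had enough UMIs, and 1, Apoe, was lower, at 221.4 against 507.2 CPM (0.44; 0.38 to 0.50), where 11.7% of 3913 genes were higher and 18.2% lower. Monocyte markers were at 0.49, neutrophil markers at 0.43 and cell cycle transcripts at 2.79 in these cells, and the chase level of Apoe lay near the level that cannot be told apart from free RNA.

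Osteoblast-like cells had lower levels of every enzyme tested than osteogenic CAR-like cells, 10 of 10 in the pulse and 7 of 7 in the chase library past 1.5-fold. Most genes did the same: 70.4% of 8998 and 64.3% of 7942 were lower by that margin, and 5.46% and 5.88% were higher. The median log2 ratio was -1.61 and -1.27 for the enzymes and -0.93 and -0.81 for all genes. The summed synthesis ratio was 0.33 and 0.34 on CPM and 0.62 and 0.60 after median-of-ratios scaling. Abca1, at 1.37 (1.20 to 1.57) and 1.55 (1.32 to 1.82), and Insig1 were above 1 in both libraries.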

How the data were processed

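The authors deposited raw UMI counts per gene and barcode for each library, made with the 10x Genomics 3' kit v3.1 per the labels. Cell Ranger 6.0.2 is named per the file headers and 2.1.1 per the submitters' processing notes, with build mm10; the sources used here name no annotation version. Cells with at least 500 genes, 1000 UMIs and under 10% mitochondrial UMIs were kept (9390 of 10608 and 8445 of 10046), and Scrublet (scanpy 1.11.5, per library) removed 178 and 110. A cell joined the class, of 21 marker lists, with the highest mean scaled marker level if at least 3 markers were detected and the next class lay 0.05 behind; 15 classes are described and 415 and 374 cells stayed ungated. A fibroblast gate was left out because monocyte genes led it. UMIs were summed per class and library, giving CPM, ratios and exact counting intervals. A gene was tested with at least 100 UMIs, and past 1.5-fold it was counted as higher or lower. A count model across replicates could not be fitted with 1 library per group. All 28 genes are named; from each other list up to 3 past 1.5-fold with the largest change. The 28 genes and all lists were chosen with earlier results of these data known, and the gate's margin after seeing the data. The contrast step was tested on simulated counts.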

Additional observations from a re-analysis of the deposited data

How the results depend on the processing

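Of the main counts, ratios and levels, 210 of 258 values under the other settings stayed within 1.5 times the count or within counting error, as did 39 of 48 under alternatives chosen after seeing the data (cycling cells left out, cells over 1% neutrophil markers left out, and median-of-ratios scaling of class levels). Of 642 alternative values for single genes past 1.5-fold, 598 were still past it and 2 turned round: Sqle in cycling chase cells, at 0.97 as a mean over cells and 0.87 with doublets removed at the loading rate. The cause was not tested. No paired analysis was possible because each group holds 1 library. Depth limits the counts: 6 of 18 enzymes had under 100 UMIs in the osteogenic comparison of chase with pulse.

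With at least 500 UMIs per gene fewer genes were tested. The enzymes higher in chase then numbered 0 of CAR-like, 1 of adipogenic and 0 of osteogenic; those higher in osteogenic cells 2 in the pulse and 1 in the chase library, with 1 lower in the chase library; and those higher in cycling cells 1 in the pulse and 0 in the chase library, with 0 lower there. With no minimum, 2 enzymes were higher and 1 lower in osteogenic chase cells. As a mean over cells, 1 enzyme was higher in chase CAR-like and 2 in adipogenic cells, 1 was lower in osteogenic chase cells and 3 were higher in cycling chase cells. Without mitochondrial and ribosomal protein genes in the total, the median of all genes between CAR-like forms shifted to 0.11 and 0.12 (log2), the synthesis ratio was 1.48 and 1.44, and 0 and 1 enzymes were lower. One enzyme was lower in osteogenic chase cells with doublets removed at the loading rate and with the stricter gate. In cycling pulse cells the stricter gate gave 2 lower and the loading-rate removal a synthesis ratio of 1.39; in cycling chase cells 1 was lower with median-of-ratios scaling and with doublets kept.

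Levels between classes kept their direction. Adipogenic CAR-like over monocyte or macrophage-like Insig2 was 5.34 and 6.52 as a mean over cells and 6.76 (chase) with median-of-ratios scaling. Dendritic cell-like over adipogenic CAR-like Fdps in the chase library was 11.6 with the stricter gate and 6.27 thinned. Monocyte or macrophage-like over adipogenic CAR-like Apoe was 3.40 and 2.28 with the stricter gate, 2.94 and 2.03 as a mean over cells, 2.97 and 2.11 thinned, 3.54 and 2.44 with median-of-ratios scaling and 2.11 (chase) with loading-rate removal; Abca1 was 10.7 and 10.3, 11.3 and 10.5, 11.1 and 10.8, and 10.96 and 10.7 under the first 4. The dendritic cell-like over adipogenic synthesis sum was 2.06 (pulse) with the stricter gate, 1.86 (chase) as a mean over cells, and 1.95 and 1.86 with median-of-ratios scaling. Osteoblast-like over osteogenic synthesis was 0.38 and 0.38 as a mean over cells, 0.30 (pulse) with loading-rate removal, 0.36 (pulse) thinned, and 0.62 and 0.60 with median-of-ratios scaling.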

Other observations

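Fatty acid synthesis genes, which SREBP also drives, did not move as 1 group. In adipogenic CAR-like cells 3 of 12 were higher by 1.5-fold in the chase library and 1 was lower, against 6.28% and 5.77% of all genes. The desaturases Fads2 and Fads1 were at 21.7 against 10 CPM (2.16; 1.88 to 2.49) and at 45.3 against 24.1 CPM (1.88; 1.72 to 2.06). Thrsp, a lipogenic factor, was 2.28-fold higher (1.64 to 3.19). Scd2, a stearoyl-CoA desaturase, was at 39.7 against 70.2 CPM (0.57; 0.53 to 0.61), and the synthase Fasn at 0.86 (0.75 to 0.97). In osteogenic CAR-like cells 2 of 8 were lower, Scd2 at 0.48 (0.41 to 0.56) and Me1, malic enzyme, at 0.57 (0.38 to 0.83), and 0 higher, against 6.22% of all genes lower and 5.52% higher.

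Between the CAR-like forms the same list was divided. Fads2 was 6.49-fold (5.60 to 7.52) higher in osteogenic CAR-like cells of the pulse and 3.68-fold (3.21 to 4.21) of the chase library, and Fads1 2.28-fold and 1.68-fold. Scd1 was at 6.26 against 50.5 CPM (0.12; 0.09 to 0.17) and at 7.90 against 44.7 CPM (0.18; 0.12 to 0.25). In all, 2 of 11 passed 1.5-fold upward and 2 downward in osteogenic cells of the pulse library, against 10.7% and 13.8% of all genes, and 2 and 3 of 12 in the chase library, against 10.3% and 14.1%.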
